A study of Mus musculus with 4 samples.

Results

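The genes described are 40 regulators and structural parts of mitosis: the kinases and cyclins that start it, the spindle assembly checkpoint, the kinetochore, the mitotic kinesins and the machinery of cytokinesis. They were chosen by name for their role in mitosis, with earlier results of these data known, and all 40 were found among the 24346 gene symbols of each library. They were read in MC38, a mouse colon carcinoma cell line, by RNA sequencing of polyadenylated transcripts. The libraries form 2 groups of 2, MC38 cells labelled as Arid5a knockout (KO, replicates 1 and 2) and MC38 cells labelled wild type (WT, replicates 1 and 2), with no treatment or time point named for either group. The labels give neither the deleted part of Arid5a nor whether the knockout line is a single clone.

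Entry into mitosis is driven by the kinase CDK1 with cyclins A and B, which the phosphatases CDC25B and CDC25C switch on and which PLK1 and Aurora A reinforce. The kinetochore joins each chromosome to spindle microtubules, and the checkpoint proteins BUB1, BUBR1, MAD2 and MPS1 hold back the ubiquitin ligase APC/C with its activator CDC20 until all chromosomes are attached. The transcripts of most of these genes accumulate late in the cell cycle under the MuvB complex, B-MYB and FOXM1, so in dividing tumour cells they are used as a readout of proliferation.

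Arid5a, an RNA-binding protein of the AT-rich interaction domain family, went against the labels. Its level was 2.16 and 1.77 FPKM (fragments per kilobase of transcript, scaled to the mapped fragments of the library) in the KO-labelled libraries, against 0.225 and 0.124 FPKM in the WT-labelled libraries. Both KO-labelled libraries were thus higher, and the directions given here follow the labels, not a loss of Arid5a. Whether the group labels were exchanged or the targeted allele was still transcribed was not tested, and an exchange would turn round all the directions given. The gene lies on chromosome 1 from 36307733 to 36324029 (GRCm38, plus strand), and a single value per gene cannot tell its exons apart. Estimated depth was about 10200000 and 11200000 fragments in the KO-labelled libraries, against 15100000 and 11600000 in the WT-labelled libraries. The least covered of the mitotic genes, Spc24, had an estimate of about 367 fragments in its lowest library. This takes the longest annotated transcript, so the true number may be lower. All 13 colon epithelial markers checked averaged below 1 FPKM, and 5 of them, Epcam and Cdx2 included, were listed at 0 in every library, so the colon origin of the line was not visible in them. Leukocyte markers summed to 1.69 and 2.62 FPKM in the KO-labelled libraries and 7.66 and 7.53 FPKM in the WT-labelled libraries. Of the 12 in the tables, 6 were listed at 0 in every library. Cd68 alone, at 1.03 and 1.67 FPKM in the KO-labelled libraries and 6.14 and 5.80 FPKM in the WT-labelled libraries, carried most of the difference. Fibroblast markers summed to 19.98 and 20.7 FPKM in the KO-labelled libraries, against 45.2 and 41.0 FPKM in the WT-labelled libraries, and endothelial markers to less than 1 FPKM in each library. Of the 8 fibroblast markers 5 were tested: Col3a1 and Dcn fell, Col1a1 rose, and Pdgfra and Pdgfrb were not called. Col3a1, at 6.78 and 6.86 FPKM in the KO-labelled libraries and 29.3 and 26.4 FPKM in the WT-labelled libraries, carried most of the difference in the sum. The part of these differences in the mitotic genes was not tested.

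All 40 mitotic genes were well expressed and passed the filter of a mean of 1 FPKM. Their median level was 58.1 and 55.2 FPKM in the KO-labelled libraries, against 54.4 and 53.8 FPKM in the WT-labelled libraries, while the median of all tested genes was 14.4 FPKM in each library. The highest levels were those of Top2a, the topoisomerase that untangles chromosomes, at 195 ± 2.54 FPKM in the KO-labelled libraries and 146 ± 3.47 FPKM in the WT-labelled libraries (SD, n = 2 each), and of Birc5, the passenger complex subunit survivin. Cenpf, a kinetochore protein with a long transcript, was lowest, at 10.1 ± 0.385 FPKM in the KO-labelled libraries and 8.07 ± 0.326 FPKM in the WT-labelled libraries (SD, n = 2 each). Summed over the 40 genes, the level was 2633 and 2618 FPKM in the KO-labelled libraries and 2423.5 and 2399.5 FPKM in the WT-labelled libraries. In bulk RNA a different share of cells in mitosis and a different amount of these transcripts per mitotic cell cannot be told apart.

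**Figure D1:**
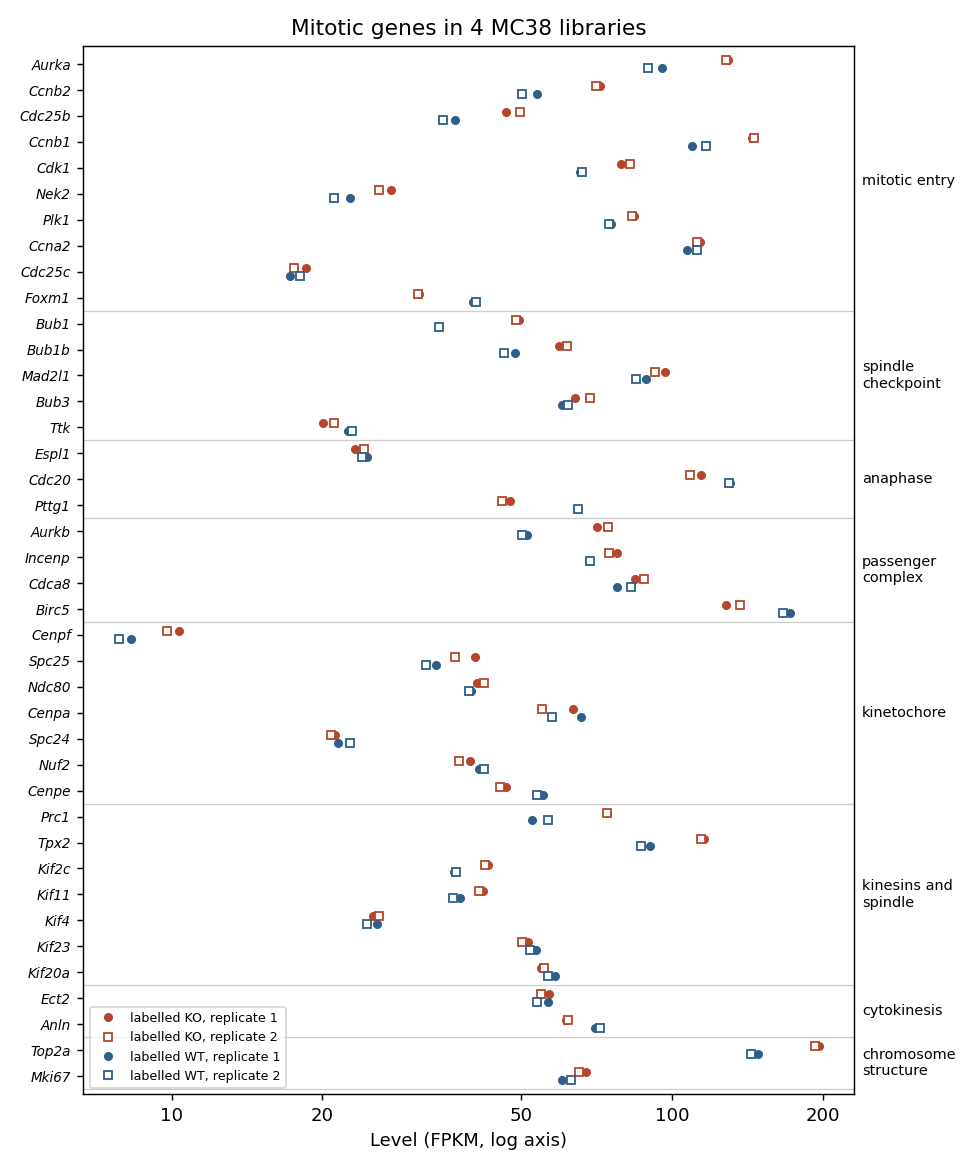
Levels of the 40 mitotic genes in FPKM on a log axis, 1 row per gene, grouped by role and within a role ordered by log2 change. Red marks are the KO-labelled libraries and blue marks the WT-labelled libraries, filled for replicate 1 and open for replicate 2. Levels span from Cenpf near 10 FPKM to Top2a near 195 FPKM, and for most genes the replicates of a group sit closer to each other than to the other group.

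The comparison sets the mitotic genes of the KO-labelled cells against those of the WT-labelled cells. Calls went in both directions and the changes were modest, in a comparison where 47.6% of all genes tested were called. Of the 40 genes, 18 rose and 6 fell in the KO-labelled libraries (limma on log2(FPKM + 1), Benjamini-Hochberg adjusted p under 0.05 over all 10827 genes tested), with a median log2 change of 0.11, against 0.006 over all genes tested. Of all genes tested 47.6% were called, 24.4% higher and 23.3% lower. Among the mitotic genes 60% were called, above that share, with 45% higher and 15% lower. Outside chromosome 2, 52.9% of the mitotic genes were called, 35.3% higher and 17.6% lower, against 21.8% and 24.4% of all genes there. The mitotic genes were more highly expressed than most tested genes, and shares among genes of like level were not compared. The largest changes were a rise of 0.51 for the checkpoint kinase Bub1 and a fall of 0.46 for securin, Pttg1, which are fold changes of the mean FPKM of 1.44 and 0.721. Both libraries of one group lay beyond both of the other for 34 of the 40 genes (85%), where 77.5% of all genes tested did so. The KO-labelled libraries were the higher ones for 23 of them and the lower ones for 11, against 39.4% and 38.2% of all genes tested. The p-values measure the spread between these libraries, since the labels do not say that replicates came from separate cultures.

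**Figure D2:**
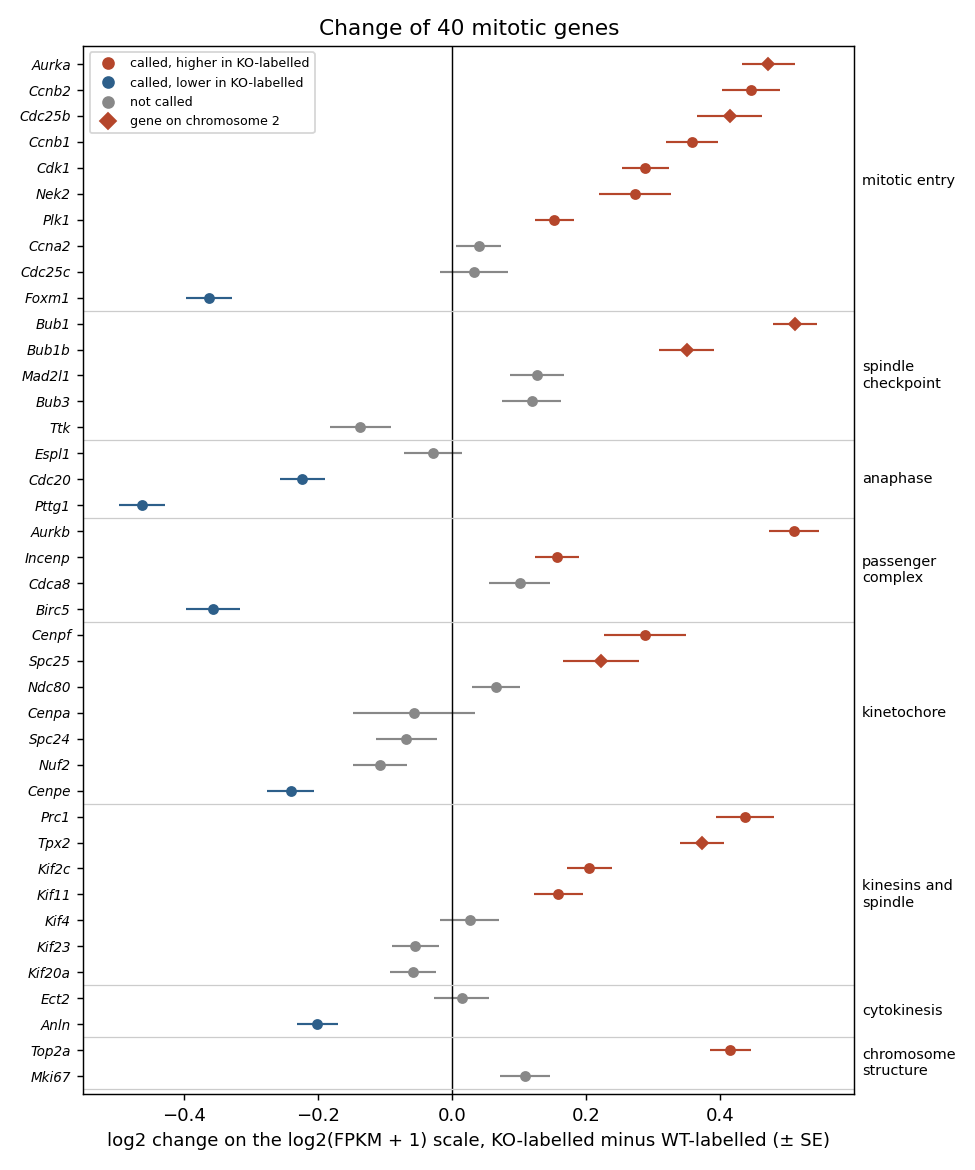
Log2 change of each mitotic gene on the log2(FPKM + 1) scale, KO-labelled minus WT-labelled, with its standard error, grouped by role. Red marks were called higher, blue marks called lower and grey marks were not called, and diamonds are the 6 genes of chromosome 2. Mitotic entry genes lie mostly to the right, the 2 chromosome structure genes to the right, and the 3 anaphase genes to the left or at 0. The other groups spread to both sides.

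Promoters of mitotic genes typically carry CCAAT boxes, bound by NF-Y, upstream of a cell cycle genes homology region, TTTGAA or TTCGAA, which the MuvB complex binds close to the transcription start. The RefSeq promoter table (GRCm38.p6, from 250 bases before to 50 after each start) held 32 of the 40 genes, and both strands were searched. TTTGAA was found in 23 of the 32 genes (71.9%), in 20.2% of all 27025 genes of the table and in 17.9% of its 32851 windows. TTCGAA was found in 4 (12.5%), against 1.80% of genes and 1.56% of windows, and CCAAT in 25 (78.1%), against 41.1% of genes and 37.4% of windows. CCAAT can share 1 base with a homology region and 2 with its own reverse form, the homology regions cannot overlap each other, and a gene with 2 windows counts once if either holds the motif. At least 2 CCAAT boxes were found in 17 genes (53.1%), against 13.3% of genes and 11.7% of windows, and a homology region whose first base lay within 50 bases of the start in 23 genes (71.9%), against 6.12% of genes and 5.31% of windows. Either form of the homology region was found in 13 of the 15 matched genes that rose, in 2 of the 5 that fell and in 10 of the 12 that were not called. For CCAAT these numbers were 14 of 15, 2 of 5 and 9 of 12. Whether the boxes differed between genes that rose and fell was not tested. The sequences below show the bases from 90 before to 30 after the start, so that boxes can be compared. Bub1, Ccnb2, Top2a and Cdk1 rose, and Cdc20 and Anln fell. Cdc20 and Anln are the only matched genes that fell and hold a homology region, and Pttg1, Birc5 and Cenpe held none. Capitals mark CCAAT and the homology region on either strand (ATTGG and TTCAAA are their reverse forms).
Bub1, chr2:127831830-127831949, minus strand: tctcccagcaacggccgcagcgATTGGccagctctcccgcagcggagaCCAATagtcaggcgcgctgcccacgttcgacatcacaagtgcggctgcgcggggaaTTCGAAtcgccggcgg
Ccnb2, chr9:70421525-70421644, minus strand: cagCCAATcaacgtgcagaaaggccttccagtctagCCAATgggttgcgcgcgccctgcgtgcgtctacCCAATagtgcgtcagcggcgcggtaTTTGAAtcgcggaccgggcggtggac
Top2a, chr11:99024160-99024279, minus strand: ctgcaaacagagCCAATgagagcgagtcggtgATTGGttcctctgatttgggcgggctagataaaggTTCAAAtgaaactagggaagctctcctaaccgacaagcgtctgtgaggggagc
Cdk1, chr10:69352883-69353002, minus strand: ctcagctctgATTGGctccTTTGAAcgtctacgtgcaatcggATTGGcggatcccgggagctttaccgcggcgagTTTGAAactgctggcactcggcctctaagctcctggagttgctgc
Cdc20, chr4:118437314-118437433, minus strand: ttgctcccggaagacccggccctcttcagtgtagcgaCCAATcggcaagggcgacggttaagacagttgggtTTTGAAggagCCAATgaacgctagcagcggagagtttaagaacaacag
Anln, chr9:22389177-22389296, minus strand: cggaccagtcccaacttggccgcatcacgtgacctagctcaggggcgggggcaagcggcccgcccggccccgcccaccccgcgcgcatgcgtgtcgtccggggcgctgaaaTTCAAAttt

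**Figure D3:**
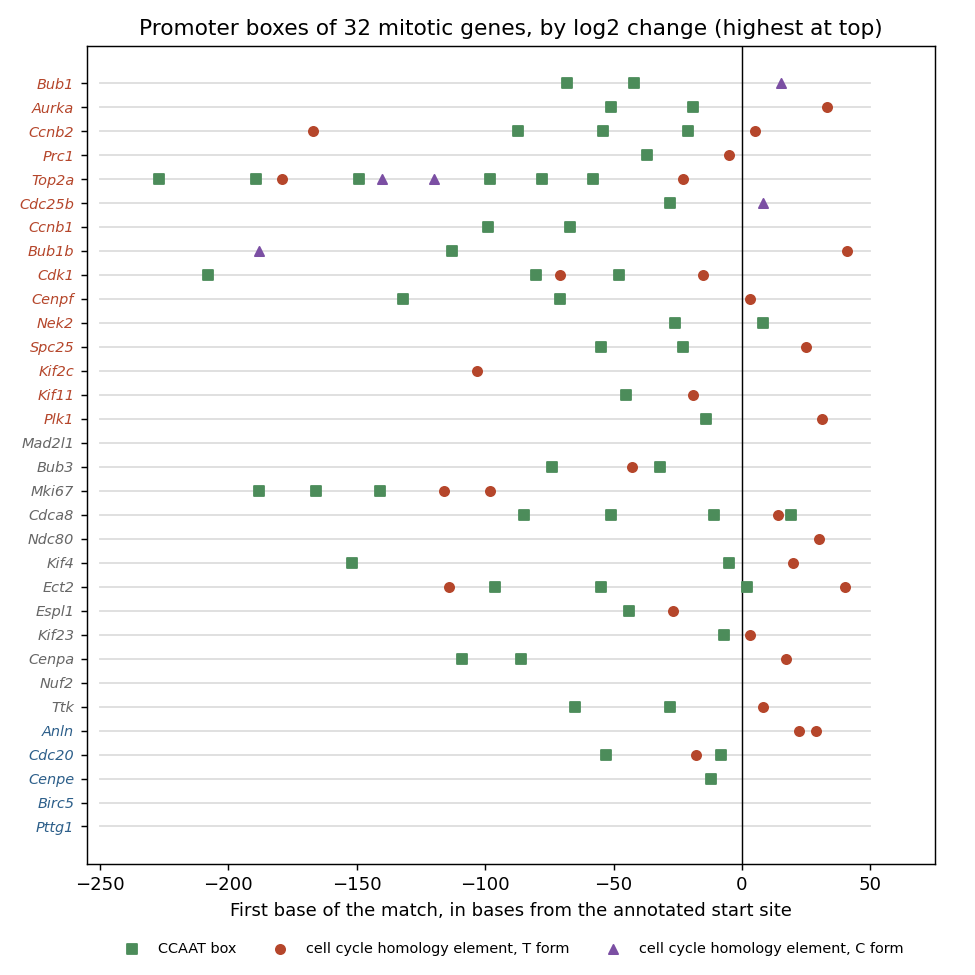
Positions of CCAAT boxes (green squares) and of the homology region in its T form (red circles) and C form (purple triangles), in bases from the annotated start, in the first listed RefSeq window of 32 mitotic genes ordered by log2 change with the highest at the top. Gene names are red where the gene was called higher in the KO-labelled libraries, blue where called lower and grey where not called. Of the 32 genes, 23 hold a homology region within 50 bases of the start.

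Cdc20 and Ccnb2, which moved in opposite directions, both hold a TTTGAA within 50 bases of the start. The 3 CCAAT boxes of Ccnb2 all lie upstream of it, while Cdc20 has 1 on each side. These matches describe letters in a window and do not show that a factor is bound.

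Genes of mitotic entry were the group that rose most often, with 7 of 10 higher (70%) and 1 lower (10%). Over all genes tested, 24.4% were called higher and 23.3% lower. Aurka, the Aurora A kinase of centrosomes and spindle poles (chromosome 2, 172356190 to 172370535, minus strand), was 129.6 and 128 FPKM in the KO-labelled libraries, against 95.7 and 89.7 FPKM in the WT-labelled libraries. The difference was 0.47 ± 0.039 on the log2 scale (standard error; adjusted p = 0.000883 by limma). The groups did not overlap. Ccnb2, one of the B cyclins that activate CDK1, was 71.7 and 70.4 FPKM in the KO-labelled libraries, against 53.7 and 50.2 FPKM in the WT-labelled libraries, which is 0.45 ± 0.043 as a log2 change (standard error; adjusted p = 0.00132 by limma). Ccnb1, the other B cyclin and the more abundant of the pair per length, was 144 and 146 FPKM in the KO-labelled libraries, against 109.5 and 117 FPKM in the WT-labelled libraries, which is 0.36 ± 0.039 as a log2 change (standard error; adjusted p = 0.00182 by limma). Their kinase Cdk1 was 78.9 and 82.3 FPKM in the KO-labelled libraries and 65.5 and 66.2 FPKM in the WT-labelled libraries, which is 0.29 ± 0.035 as a log2 change (standard error; adjusted p = 0.00246 by limma), and 0.18 after centring within chromosomes (adjusted p = 0.0227). The kinase and both of its B cyclins were therefore higher in both KO-labelled libraries than in either WT-labelled one.

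Cdc25b, the phosphatase that first activates CDK1, was 46.6 and 49.6 FPKM in the KO-labelled libraries, against 36.8 and 34.9 FPKM in the WT-labelled libraries, and rose by 0.41 (limma, adjusted p = 0.0023). Spef1, whose exons overlap it on the other strand, was at 2.41 and 2.00 FPKM in the KO-labelled libraries and 1.33 and 1.61 FPKM in the WT-labelled libraries. Spef1 was itself called higher (log2 change 0.38; limma, adjusted p = 0.0474), and both genes lie on chromosome 2. Nek2, a kinase that separates centrosomes, rose by 0.27 ± 0.054 and Plk1, the polo kinase, by 0.15 ± 0.029 (SE; limma, adjusted p = 0.0119 and 0.0106). Both of these calls depended on single libraries. Nek2 was not called without KO replicate 1 (adjusted p = 0.0537) or without WT replicate 2 (adjusted p = 0.0646), and the call of Plk1 was lost without WT replicate 2 (adjusted p = 0.0616). Cyclin A2, Ccna2, was 114 and 112 FPKM in the KO-labelled libraries and 107 and 112 FPKM in the WT-labelled libraries, and Cdc25c was 18.6 and 17.6 FPKM in the KO-labelled libraries and 17.3 and 18.0 FPKM in the WT-labelled libraries. The groups of both overlapped and neither was called (limma, adjusted p = 0.374 and 0.619).

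Foxm1, the forkhead factor that activates late cell cycle genes, was the only entry gene that fell. It was 31.2 and 31.1 FPKM in the KO-labelled libraries, against 40.1 and 40.6 FPKM in the WT-labelled libraries, which is -0.36 ± 0.034 as a log2 change (standard error; adjusted p = 0.00128 by limma). The direction is opposite to that of the 7 entry genes that rose, Ccnb1, Ccnb2, Aurka, Cdc25b, Nek2, Plk1 and Cdk1. Pttg1 (-0.46), Birc5 (-0.36), Cenpe (-0.24), Cdc20 (-0.22) and Anln (-0.20) fell as Foxm1 did. Late cell cycle genes thus lay on both sides. GENCODE places exons of Tex52 and of a predicted gene on the same strand within Foxm1, and neither symbol is in the tables.

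In the spindle assembly checkpoint, 2 of 5 genes rose and 0 fell, where 24.4% of all genes tested were called higher and 23.3% lower. Bub1, the kinase that recruits checkpoint proteins to kinetochores (chromosome 2, 127801122 to 127831865, minus strand), was 49.5 and 48.9 FPKM in the KO-labelled libraries, against 34.2 and 34.2 FPKM in the WT-labelled libraries. The difference was 0.51 ± 0.033 on the log2 scale (standard error; adjusted p = 0.000445 by limma), the largest rise of the 40. Bub1b, which encodes BUBR1 of the mitotic checkpoint complex, was 59.4 and 61.8 FPKM in the KO-labelled libraries and 48.5 and 46.1 FPKM in the WT-labelled libraries, which is 0.35 ± 0.041 as a log2 change (standard error; adjusted p = 0.00238 by limma). Both genes lie on chromosome 2, where 54.6% of tested genes were called higher, and Bub1b lost its call after centring within chromosomes (adjusted p = 0.109). Their binding partner Bub3, which also serves outside mitosis, had a log2 change of 0.12, the MAD2 gene Mad2l1 one of 0.13, and Ttk, the MPS1 kinase at the top of the checkpoint, one of -0.14. These 3 missed the threshold narrowly (limma, adjusted p = 0.0758, 0.0518 and 0.0566), although the groups did not overlap. BUBR1 transcript per Bub3 transcript, a ratio of FPKM levels, was 0.913 ± 0.019 in the KO-labelled libraries and 0.776 ± 0.044 in the WT-labelled libraries (SD, n = 2 each).

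Of the 3 genes that control anaphase onset, 0 rose and 2 fell, where 24.4% of all genes tested were called higher and 23.3% lower. Pttg1 encodes securin, the inhibitor of separase that is destroyed at anaphase onset (chromosome 11, 43420250 to 43426251, minus strand). It was 47.6 and 45.7 FPKM in the KO-labelled libraries, against 64.6 and 64.7 FPKM in the WT-labelled libraries, which is -0.46 ± 0.035 as a log2 change (standard error; adjusted p = 0.000661 by limma). Its level in both KO-labelled libraries was well below either WT-labelled library. Cdc20, the APC/C activator that the checkpoint inhibits, was 114 and 109 FPKM in the KO-labelled libraries, against 130.6 and 130.03 FPKM in the WT-labelled libraries, which is -0.22 ± 0.034 as a log2 change (standard error; adjusted p = 0.00498 by limma). An exon of Elovl1 overlaps Cdc20 on the other strand, and Elovl1 itself was not called (log2 change -0.16; limma, adjusted p = 0.136). Espl1, which encodes separase, was 23.3 and 24.3 FPKM in the KO-labelled libraries and 24.5 and 24.0 FPKM in the WT-labelled libraries. It was not called (limma, adjusted p = 0.603), but was called higher after centring within chromosomes, at 0.16 (limma, adjusted p = 0.0480). Securin transcript per separase transcript was 1.96 ± 0.113 in the KO-labelled libraries and 2.67 ± 0.047 in the WT-labelled libraries, and Cdc20 per Mad2l1 was 1.18 ± 0.001 in the KO-labelled libraries and 1.505 ± 0.045 in the WT-labelled libraries (ratios of FPKM, SD, n = 2 each).

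The 4 subunits of the chromosomal passenger complex, which corrects faulty attachments and prepares cytokinesis, parted. Aurkb, its Aurora B kinase (chromosome 11, 69045647 to 69051664, plus strand), was 70.9 and 74.5 FPKM in the KO-labelled libraries, against 51.3 and 50.2 FPKM in the WT-labelled libraries, which is 0.51 ± 0.038 as a log2 change (standard error; adjusted p = 0.000619 by limma). Birc5, the survivin subunit that brings the kinase to centromeres (chromosome 11, 117849251 to 117855743, plus strand), was 128 and 136 FPKM in the KO-labelled libraries, against 172 and 167 FPKM in the WT-labelled libraries, which is -0.36 ± 0.041 as a log2 change (standard error; adjusted p = 0.00212 by limma). Centred within chromosomes, Birc5 was lower by less, at -0.20 (adjusted p = 0.0121). The scaffold Incenp rose by 0.16 ± 0.033 (SE; limma, adjusted p = 0.0142), but not without KO replicate 1 (adjusted p = 0.0591), WT replicate 1 (0.0691) or WT replicate 2 (0.0665). Borealin, Cdca8, had a log2 change of 0.10 and was not called (limma, adjusted p = 0.121). There were 1.80 and 1.83 Birc5 transcripts per Aurkb transcript, as a ratio of FPKM, in the KO-labelled libraries, against 3.36 and 3.32 in the WT-labelled libraries. The same ratio was 1.05 ± 0.062 for Incenp in the KO-labelled libraries and 1.35 ± 0.025 in the WT-labelled libraries, and 1.18 ± 0.004 for Cdca8 in the KO-labelled libraries and 1.58 ± 0.098 in the WT-labelled libraries (SD, n = 2 each). An exact permutation test of 2 libraries against 2 cannot give a p below 0.333, so these ratios are descriptions.

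**Figure D4:**
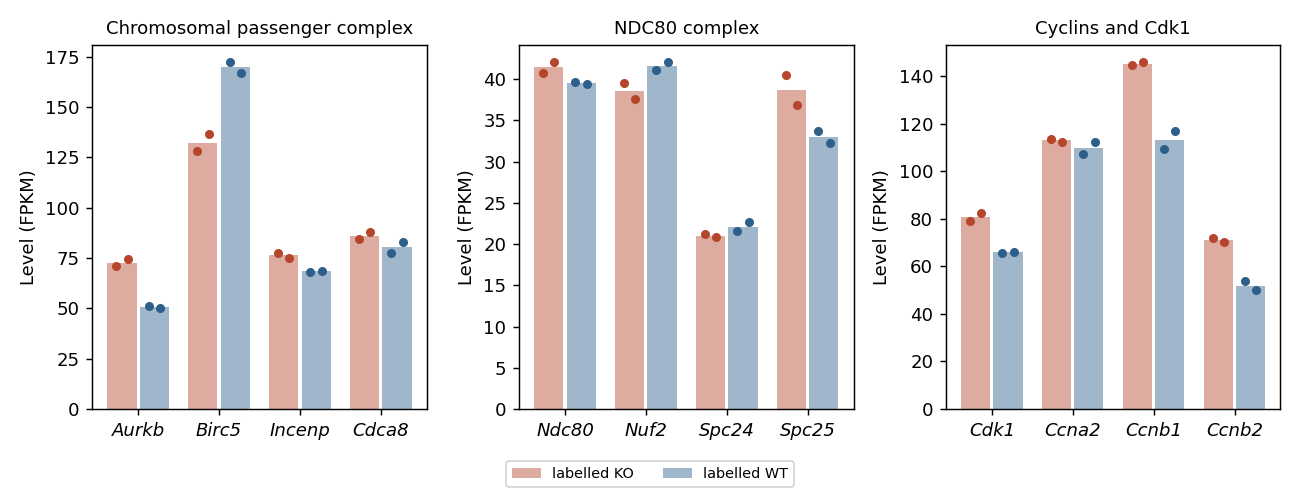
Levels in FPKM of the 4 chromosomal passenger complex genes, of the 4 NDC80 complex genes and of Cdk1 with its cyclins. Bars are means of 2 libraries, red for KO-labelled and blue for WT-labelled, and points are the libraries. Aurkb was higher and Birc5 lower in the KO-labelled libraries, the NDC80 complex genes other than Spc25 were not called, and Cdk1, Ccnb1 and Ccnb2 were higher while Ccna2 overlapped.

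Among 7 centromere and kinetochore genes, 2 rose (28.6%) and 1 fell (14.3%), against 24.4% higher and 23.3% lower over all genes tested. Cenpe, a kinesin that moves chromosomes to the spindle equator, was 46.5 and 45.4 FPKM in the KO-labelled libraries, against 55.2 and 53.8 FPKM in the WT-labelled libraries, which is -0.24 ± 0.035 as a log2 change (standard error; adjusted p = 0.00433 by limma). Cenpf, a farnesylated protein of the outer kinetochore, was 10.3 and 9.79 FPKM in the KO-labelled libraries, against 8.30 and 7.84 FPKM in the WT-labelled libraries, which is 0.29 ± 0.061 as a log2 change (standard error; adjusted p = 0.0151 by limma). Its call was lost without KO replicate 1 (adjusted p = 0.0671), WT replicate 1 (0.0512) or WT replicate 2 (0.0870). The NDC80 complex, 4 proteins in equal numbers that bind the microtubule, showed no common direction. Spc25 was 40.5 and 36.9 FPKM in the KO-labelled libraries, against 33.8 and 32.2 FPKM in the WT-labelled libraries, which is 0.22 ± 0.056 as a log2 change (standard error; adjusted p = 0.0260 by limma). That call was lost without KO replicate 1 (adjusted p = 0.0809), WT replicate 1 (0.0666) or WT replicate 2 (0.125), and without a variance trend (0.0527), and centring within chromosomes turned the change to -0.02 (0.779). Ndc80, Nuf2 and Spc24 had log2 changes of 0.07, -0.11 and -0.07 and were not called (limma, adjusted p = 0.183, 0.0788 and 0.256). Cenpa, the centromeric histone H3 variant, was 63.4 and 55.0 FPKM in the KO-labelled libraries and 65.8 and 57.5 FPKM in the WT-labelled libraries, with the widest standard error of the 40 genes and overlapping groups.

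Of 7 mitotic kinesins and spindle proteins, 4 rose (57.1%) and 0 fell, against 24.4% higher and 23.3% lower over all genes tested. Prc1, which bundles the antiparallel microtubules of the central spindle, was 74.1 and 74.2 FPKM in the KO-labelled libraries, against 52.5 and 56.6 FPKM in the WT-labelled libraries, which is 0.44 ± 0.044 as a log2 change (standard error; adjusted p = 0.00146 by limma). Tpx2, the activator and microtubule anchor of Aurora A, was 116 and 114 FPKM in the KO-labelled libraries and 90.5 and 86.8 FPKM in the WT-labelled libraries, which is 0.37 ± 0.033 as a log2 change (standard error; adjusted p = 0.00107 by limma). Tpx2 and Aurka both rose, and their ratio of FPKM was 0.893 ± 0.001 in the KO-labelled libraries and 0.957 ± 0.015 in the WT-labelled libraries (SD, n = 2 each). The microtubule depolymerase Kif2c was 42.8 and 42.4 FPKM in the KO-labelled libraries, against 36.6 and 37.1 FPKM in the WT-labelled libraries (log2 change 0.20 ± 0.034, SE; limma, adjusted p = 0.00664). The bipolar motor Kif11 rose by 0.16 ± 0.036 (SE; limma, adjusted p = 0.0190), but was no longer called with any 1 of the 4 libraries omitted (lowest and highest adjusted p 0.0531 and 0.104). The motors of the central spindle and of chromosome arms moved less, with log2 changes of -0.06 for Kif20a, -0.06 for Kif23 and 0.03 for Kif4, and none of these 3 was called (limma, adjusted p = 0.209, 0.237 and 0.650).

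Cytokinesis and chromosome structure were represented by 2 genes each. Anln, the anillin scaffold of the contractile ring, was 61.5 and 62.0 FPKM in the KO-labelled libraries, against 70.3 and 71.9 FPKM in the WT-labelled libraries, which is -0.20 ± 0.031 as a log2 change (standard error; adjusted p = 0.00538 by limma). Ect2, the exchange factor that activates RhoA at the cleavage furrow, was 56.8 and 54.7 FPKM in the KO-labelled libraries and 56.6 and 53.8 FPKM in the WT-labelled libraries, and its groups overlapped (limma, adjusted p = 0.799). Top2a was at 197 and 193 FPKM in the KO-labelled libraries, against 149 and 144 FPKM in the WT-labelled libraries, which is 0.41 ± 0.030 as a log2 change (standard error; adjusted p = 0.000595 by limma). Mki67, the proliferation antigen that coats mitotic chromosomes, was 67.4 and 65.3 FPKM in the KO-labelled libraries and 60.2 and 62.8 FPKM in the WT-labelled libraries, and was not called (log2 change 0.11; limma, adjusted p = 0.0629).

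A total of 6 of the 18 genes that rose lie on chromosome 2, and these are all the mitotic genes on that chromosome: Bub1, Aurka, Cdc25b, Tpx2, Bub1b and Spc25. Of the 864 tested genes of chromosome 2, 54.6% were called higher and 9.49% lower, with a median log2 change of 0.23, the highest of all chromosomes. The shift ran along the chromosome, with medians from 0.15 to 0.32 in stretches of 30 megabases. For the 6 mitotic genes the median was 0.39. Each library was then centred on the median log2 level of the tested genes of each chromosome. The log2 change became 0.27 for Bub1, 0.23 for Aurka, 0.17 for Cdc25b and 0.13 for Tpx2. All of these were still called (limma, adjusted p = 0.00399, 0.00963, 0.0444 and 0.0364). With the same centring Bub1b was 0.11 and Spc25 -0.02, and neither was called (limma, adjusted p = 0.109 and 0.779).

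On the other chromosomes, 12 of 34 mitotic genes rose (35.3%) and 6 fell (17.6%), where 21.8% of all genes of those chromosomes were called higher and 24.4% lower. Their median log2 change was 0.05. Chromosome 11 carried 2 of the 3 largest falls, Pttg1 and Birc5, and also the rises of Aurkb and Top2a. The median of its 915 tested genes was -0.10, so these 4 genes lay on both sides of it.

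**Figure D5:**
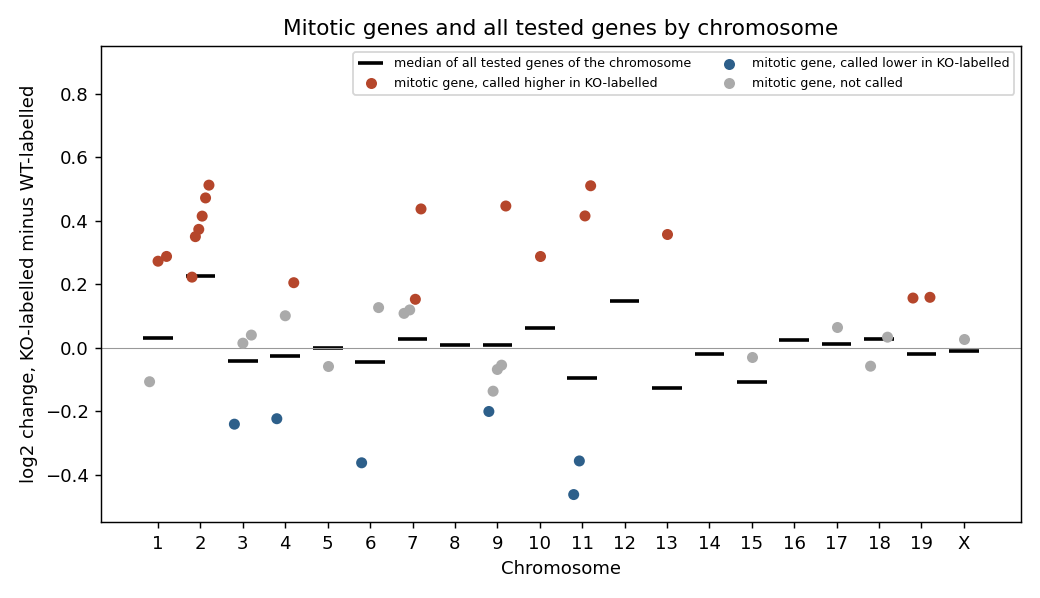
Log2 change, KO-labelled minus WT-labelled, of the mitotic genes by chromosome (points, red called higher, blue called lower, grey not called) beside the median of all tested genes of that chromosome (black lines). The line of chromosome 2 stands at 0.23, with all of its 6 mitotic genes above it except Spc25 (0.22), and the genes of chromosome 11 lie both above and below its line at -0.10.

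Neighbouring genes of the same machinery, listed by role, gave mixed directions as well. Of 12 genes of the MuvB, B-MYB and DREAM regulators of mitotic transcription, 4 rose and 1 fell, with a median log2 change of 0.09. This count and those of the lists that follow stand against 24.4% higher and 23.3% lower among all genes tested, and a share near these is not a result about a list. The pocket proteins of the DREAM repressor parted: Rbl1, or p107, had 39.999 and 37.6 FPKM in the KO-labelled libraries against 26.5 and 27.4 FPKM in the WT-labelled libraries (log2 change 0.51 ± 0.046, SE; limma, adjusted p = 0.00109), and Rbl2, or p130, had 9.77 and 9.49 FPKM in the KO-labelled libraries against 11.9 and 12.6 FPKM in the WT-labelled libraries (log2 change -0.32 ± 0.057, SE; limma, adjusted p = 0.00859). The call of Rbl2 was lost without WT replicate 2 (adjusted p = 0.0595). E2f4, the E2F partner in DREAM, rose by 0.20 and was not called without KO replicate 2 (adjusted p = 0.0574) or WT replicate 1 (0.0664). Rbl1 lies on chromosome 2, and with that chromosome left out 2 of this list rose.

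Of 20 genes of the APC/C and its regulators, 7 rose and 2 fell, with a median of 0.07. The 3 with the largest changes all lie on chromosome 2: the cullin-like subunit Anapc2 rose by 0.75, the ubiquitin-conjugating enzyme Ube2c by 0.72 and the scaffold Anapc1 by 0.50. Ube2c was 354 and 376 FPKM in the KO-labelled libraries, against 222 and 220 FPKM in the WT-labelled libraries (limma, adjusted p = 0.000228). With chromosome 2 left out, 4 rose and 2 fell. The 2 that fell, outside the rule for named genes, were the RING subunit Anapc11 (-0.46) and the checkpoint paralog Mad2l2 (-0.25).

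Among 20 condensin and cohesin genes, 7 rose and 3 fell, with a median of 0.08. The condensin I kleisin Ncaph, on chromosome 2, rose by 0.56, the cohesin ring subunit Smc3 by 0.26 and shugoshin, listed as Sgol1, by 0.22. Sgol1 lost its call without KO replicate 1 (adjusted p = 0.129), WT replicate 1 (0.0690) or WT replicate 2 (0.164). It also lost it without the filter on low values (0.0615) and without a variance trend (0.0588).

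Other centromere and kinetochore genes were split evenly, with 10 of 34 higher and 11 lower and a median of 0.03. Bod1, a regulator of phosphatase 2A at kinetochores, was 52.7 and 49.9 FPKM in the KO-labelled libraries, against 103 and 102 FPKM in the WT-labelled libraries, which is -0.99 ± 0.038 as a log2 change (standard error; adjusted p = 0.000138 by limma) that was larger than that of any of the 40 genes. Cenpu, of the constitutive centromere network, changed by -0.70 ± 0.077 and the kinetochore scaffold KNL1, listed as Casc5 and on chromosome 2, by 0.69 ± 0.046 (SE; limma, adjusted p = 0.00192 and 0.000492). Other genes of the constitutive centromere network, chosen after their values were seen, lay on both sides, with more falls than rises. Cenpk (-0.53), Cenpp (-0.44), Cenpn (-0.39), Cenpm (-0.33), Cenpw (-0.25) and Stra13 (-0.22) fell, and Itgb3bp (0.49), Cenpc1 (0.43) and Cenpl (0.32) rose. Not called were Cenph, Cenpi and Cenpq, with negative log2 changes, and Cenpo, Cenpt and Apitd1, with positive ones.

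Of 30 further kinesins and spindle proteins, 12 rose and 4 fell, with a median of 0.09. Nusap1, which stabilises microtubules around chromosomes and lies on chromosome 2, rose by 0.80, the kinesin Kif15 rose by 0.42 and the hyaluronan receptor and spindle protein Hmmr fell by 0.41, or by 0.26 after centring within chromosomes. Of 22 other mitotic kinases and phosphatases, 9 rose and 5 fell, with a median of 0.03, led by Nek6 (0.53) and the Greatwall kinase Mastl (0.39), both on chromosome 2, and by Wee1 (0.33), the kinase that restrains CDK1. Centred within chromosomes, Mastl was 0.14 and not called (limma, adjusted p = 0.120).

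Of 14 further cytokinesis genes, 7 rose and 2 fell, with a median of 0.17. The spindle protein Fam83d, on chromosome 2, rose by 0.83, the GTPase Rhoa by 0.44 and Arhgef39, an exchange factor for small GTPases, by 0.43. Rhoa was 212 and 218 FPKM in the KO-labelled libraries, against 157 and 160.0 FPKM in the WT-labelled libraries (limma, adjusted p = 0.000462). With chromosome 2 and the genes without a matched chromosome left out, 4 genes of this list rose. Sept2, named after its values were seen, rose by 0.32 and was left out there only for want of a chromosome.

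S phase genes, given beside the mitotic ones because they mark the preceding phase, were called higher for 9 of 28 (32.1%) and lower for 5 (17.9%), with a median log2 change of 0.04. Mcm3 of the replicative helicase changed by 0.56, the clamp Pcna, on chromosome 2, by 0.50 and Gmnn, the licensing inhibitor geminin, by 0.38. Among those that fell, named after their values were seen, were Tk1 (-0.22), Pole (-0.19), Cdc6 (-0.16) and Cdt1 (-0.11). Whether this list differed from the mitotic genes was not tested.

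For several of the named list genes on chromosome 2 the log2 change was smaller by over 1.5 times after centring within chromosomes, though still called: 0.27 for Rbl1, 0.48 for Ube2c, 0.26 for Anapc1, 0.32 for Ncaph, 0.45 for Casc5, 0.29 for Nek6 and 0.26 for Pcna. The counts of these lists depended on single libraries and on centring within chromosomes. With that centring, falls numbered 2 for S phase genes, 3 for other kinases and 1 each for condensin and cohesin, the APC/C and cytokinesis. Without KO replicate 1, rises numbered 4 for condensin and cohesin and 6 for the other centromere and kinetochore genes. Without KO replicate 2, falls numbered 2 for S phase genes and 1 for condensin and cohesin. Without WT replicate 1, rises numbered 3 for condensin and cohesin, 5 for the other centromere and kinetochore genes, 5 for further kinesins and 5 for other kinases. Falls then numbered 7 for the other centromere genes, 1 for other kinases, 1 for condensin and cohesin and 1 for S phase genes. Without WT replicate 2, rises numbered 2 for mitotic transcription, 4 for condensin and cohesin, 6 for the other centromere genes, 6 for further kinesins and 4 for other kinases. Falls then numbered 0 for mitotic transcription and 1 each for the APC/C, condensin and cohesin, and S phase genes. The APC/C list also had 1 fall without KO replicate 1, and other kinases had 3 falls without KO replicate 1, KO replicate 2 or WT replicate 2.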

How the data were processed

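RNA sequencing libraries of MC38 cells, 2 labelled KO and 2 labelled WT, were compared. The authors deposited 1 table of FPKM values per library. Cufflinks 2.2.1, SAMtools 0.1.19, TopHat2 2.0.13 and Bowtie2 2.2.3, with the mm10 genome, are named in the submitters' processing notes, and a stranded TruSeq mRNA kit per the labels' protocols. Settings, annotation and the use of strand in counting are not given in the sources used here, so reads of overlapping genes cannot be told apart: exons of other genes overlap 10 of the 40 genes on the other strand and 2 on the same strand. Of 3 pseudogenes named after Ccnb1, Ccnb2 and Kif4, Kif4-ps was listed at 0 in each library and the other 2 are not in the tables.

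Genes averaging 1 FPKM or more in the 4 libraries were tested on log2(FPKM + 1) with limma 3.58.1 in R 4.3.3 (eBayes with a variance trend, no block, two-sided, Benjamini-Hochberg adjustment over all 10827 genes). The scale understates the change of low genes. The fit was also run on simulated data. There few genes were changed, by more than most mitotic genes moved, and no chromosome was shifted. That run therefore does not test the calls given here. Depth was estimated from the low values: in the 3 libraries other than WT replicate 1, 91.1% to 92.1% of their ratios to it at or below 0.1 FPKM were within 1% of the quotient of small whole numbers (6 at most). A scale of 15100000 fragments for WT replicate 1 put 143 of 205 genes with 1 annotated transcript of at least 2000 bases within 3% of a whole number of fragments, with 150 bases taken off the length. Whole counts could not be recovered, and no count model was used. Coordinates are from GENCODE M21 (GRCm38, the assembly of mm10), which matched 23907 symbols and all 40 genes.

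Named genes were Arid5a, the 40 mitotic genes and, from each other list, up to 3 called genes with the largest change. The 40 genes and the lists were chosen with earlier results of these data known. Gene pairs for ratios and the promoters printed were chosen after values were seen. Alternatives covered the pseudocount, filter, scaling, centring within chromosomes, moderation, a replicate block, the omission of each library and, added after seeing the data, of chromosome 2. Python 3.11.15, pandas 2.3.3 and matplotlib 3.10.9 were used for tables and figures.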

Additional observations from a re-analysis of the deposited data

How the results depend on the processing

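The number of mitotic genes called higher was 12 to 17 and called lower 6 with 1 library left out, and 17 to 19 and 6 to 7 under the other settings tried on all chromosomes. The 6 that fell kept their calls under each alternative run. Of the 24 called, 17 kept their call under all alternatives, 6 lost it when some library was left out (Plk1, Nek2, Incenp, Cenpf, Spc25 and Kif11), and Bub1b lost it after centring within chromosomes. Over all genes, 3216 to 3974 were called with 1 library left out (1666 to 2007 higher and 1550 to 1985 lower), fewer than the 5159 with all 4, and a lone library of a group is then assumed to vary like the other group's pair. Centring within chromosomes turned Spc25 to -0.0215 and Espl1 to 0.16 (limma, adjusted p = 0.779 and 0.0480). It subtracts the median level of each chromosome in each library, not the chromosome's median log2 change. With the median log2 change of its chromosome subtracted instead, Espl1 was at 0.08. Of 16 genes not called, 5 were called under some alternative, Mad2l1 under 4 of them.

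The labels share the replicate numbers 1 and 2 without saying what they pair, and deviations of same-numbered libraries correlated at 0.138 over tested genes. With the replicate number as a block, 19 mitotic genes were called higher and 6 lower, and 4673 genes over all. With 2 libraries a group and FPKM values only, counting error cannot be separated from other spread, and genes missing the threshold are not shown to be equal.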
